A study of Mus musculus with 24 samples.

Results

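The genes Xpc, Rad23b, Ddb1, Ddb2 and Cul4a, which encode the recognition step of global genome nucleotide excision repair, were followed by symbol through the gene tables of a map of cisplatin adduct repair. Each of the 5 genes matched exactly 1 of the 25239 gene rows, of which 24357 name a gene. The map was made by XR-seq, which sequences the short single-stranded oligomers that excision repair cuts out, so a read marks an adduct removed from a gene and is not a measure of that gene's RNA or protein. Kidney and liver came from wild type female mice (C57BL/6 by strain, C57BL/6J by growth protocol), 6 months old, kept in light and dark of 12 h each and killed at zeitgeber time (ZT, hours after lights on) 0, 4, 8, 12, 16 or 20. All of them, with no untreated group, had received cisplatin at 10 mg/kg intraperitoneally 2 h before. There were 2 libraries per tissue and time, 24 in all, and the labels do not say if these were different mice. The p-values therefore reflect the spread between libraries, which may be technical. Nor do the labels say if kidney and liver of a time came from the same mouse, and the tissue comparisons paired no libraries.

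Cisplatin links neighbouring bases of a DNA strand, and such adducts are removed by nucleotide excision repair. In the global branch XPC, held stable by RAD23B, binds the distorted helix anywhere in the genome, and the DDB1–DDB2 complex, best known from ultraviolet lesions, marks damage in chromatin and works on the ubiquitin ligase scaffold CUL4A. In the transcription-coupled branch RNA polymerase stalled on the transcribed strand (TS) calls the machinery, while the non-transcribed strand (NTS) of the same gene is left to the global branch, so the TS and NTS reads of a gene are set side by side.

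The promoters of the 3 members found in the RefSeq promoter table (GRCm38.p6, from 250 bases before to 50 after the annotated start) are shown. These 3 genes share a daytime peak in the liver estimates of TS repair below, which passed the test for 2 of them. The start used here is RefSeq's, which lies before that of the gene row for Ddb1 and Cul4a. The Cul4a window ends at 13105672, before its row starts at 13105721. Capitals mark every match, on either strand, to 7 motifs: the E-box CACGTG bound by CLOCK and BMAL1, its variant CACGTT, the D-box TTATGTAA, the cyclic AMP response element TGACGTCA, the GC box GGGCGG, the CCAAT box CCAAT and the nuclear receptor element AGGTCA.
Rad23b (chr4:55349792-55350091, + strand): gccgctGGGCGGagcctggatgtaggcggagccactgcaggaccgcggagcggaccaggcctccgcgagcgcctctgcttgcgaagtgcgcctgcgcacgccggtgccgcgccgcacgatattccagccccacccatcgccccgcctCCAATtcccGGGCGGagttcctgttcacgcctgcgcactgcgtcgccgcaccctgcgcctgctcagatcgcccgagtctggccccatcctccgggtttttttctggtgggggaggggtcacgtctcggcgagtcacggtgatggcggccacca
Ddb1 (chr19:10605347-10605646, + strand): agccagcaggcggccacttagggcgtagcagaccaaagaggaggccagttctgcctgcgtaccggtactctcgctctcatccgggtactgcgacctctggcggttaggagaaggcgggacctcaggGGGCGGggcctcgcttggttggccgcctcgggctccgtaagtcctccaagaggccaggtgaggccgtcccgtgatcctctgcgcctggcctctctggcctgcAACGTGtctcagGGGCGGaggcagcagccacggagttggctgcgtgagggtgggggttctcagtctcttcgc
Cul4a (chr8:13105373-13105672, + strand): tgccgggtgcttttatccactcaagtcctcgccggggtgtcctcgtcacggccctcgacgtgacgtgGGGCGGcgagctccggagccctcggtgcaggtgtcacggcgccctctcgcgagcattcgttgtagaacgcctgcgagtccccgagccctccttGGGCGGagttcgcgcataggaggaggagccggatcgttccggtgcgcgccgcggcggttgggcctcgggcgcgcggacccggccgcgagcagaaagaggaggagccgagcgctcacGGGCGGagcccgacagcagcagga
These windows were rich in G and C (70.7% in Rad23b, 66.7% in Ddb1 and 71.0% in Cul4a). Rad23b held 2 GC boxes and 1 CCAAT box, Ddb1 held 2 GC boxes and 1 match to the E-box variant, which lies 22 bases before the start, and Cul4a held 3 GC boxes. None of the 3 windows held CACGTG, a D-box, a cyclic AMP response element or the nuclear receptor element in these letters. Among 32851 promoters of the same length, 35.7% held a GC box, 37.4% a CCAAT box, 4.68% the E-box variant, 7.15% the E-box, 0.938% the D-box, 1.79% the cyclic AMP response element and 16.3% the nuclear receptor element. Xpc and Ddb2 were not matched.

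Kidney libraries held 8718055 to 33716763 reads and liver libraries 12917058 to 28244795, of which 6334958 to 24236776 and 9538537 to 21050661 were TS reads. The tissue labels fitted the repair of marker genes: 7 of 7 kidney epithelium genes had a higher mean level in kidney (summed TS level 5.74 to 6.82 RPKM, reads scaled to gene length and library size, in kidney libraries and 0.319 to 0.698 in liver libraries), and 7 of 7 hepatocyte genes were higher in liver (2.36 to 3.38 RPKM in kidney libraries and 12.5 to 17.8 in liver libraries). The clock genes Arntl, Npas2, Nr1d1, Per2 and Dbp had a 24 h rhythm of TS repair in both tissues (adjusted p up to 0.00510 in kidney and up to 0.0228 in liver, from edgeR's quasi-likelihood fits). Tissue values are those of all cells together, so fewer cells of a type and less repair per cell cannot be told apart.

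Per length, 4 of the 5 genes were heavily repaired on the TS and Ddb2 was not. Xpc, the damage sensor, lies on chr6:91489307-91515888 (minus strand, mm10, 26.6 kb) and had 2.13, 2.39 and 2.55 RPKM on the TS as the lowest, median and highest of 12 kidney libraries, against 2.26, 2.66 and 2.88 RPKM in 12 liver libraries. Its NTS level was 0.0875, 0.123 and 0.174 RPKM in kidney and 0.0615, 0.106 and 0.122 RPKM in liver. The lowest TS level was above the highest NTS level in both tissues. Rad23b, which encodes the partner of XPC and also binds ubiquitin chains, lies on chr4:55350042-55392237 (plus strand, 42.2 kb) and had 1.62, 1.91 and 2.22 RPKM on the TS in kidney against 1.41, 1.59 and 1.81 RPKM in liver. Its NTS level was 0.0854, 0.124 and 0.146 RPKM in kidney and 0.110, 0.147 and 0.172 RPKM in liver.

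Ddb1, the adaptor that ties DDB2 and other receptors to the ligase, lies on chr19:10605625-10629821 (plus strand, 24.2 kb). It had 2.25, 2.57 and 3.12 RPKM on the TS in kidney against 1.94, 2.36 and 2.60 RPKM in liver, and 0.0745, 0.109 and 0.129 RPKM on the NTS in kidney against 0.0513, 0.0835 and 0.113 RPKM in liver. Cul4a, the scaffold, lies on chr8:13105721-13147939 (plus strand, 42.2 kb, with the row of Mir7065 inside it, which covers 0.1% of its length). It had the highest mean TS level of the 5 in both tissues, at 2.85, 2.95 and 3.36 RPKM in kidney against 2.61, 2.95 and 3.37 RPKM in liver, and NTS levels of 0.0448, 0.0912 and 0.112 RPKM in kidney against 0.0821, 0.111 and 0.140 RPKM in liver.

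Ddb2, which encodes the lesion-binding subunit, lies on chr2:91211582-91237066 (minus strand, 25.5 kb) and broke this pattern on both strands. Its TS level was 0.531, 0.712 and 0.859 RPKM in kidney against 0.884, 1.10 and 1.26 RPKM in liver. Its NTS level was 0.534, 0.598 and 0.652 RPKM in kidney against 0.683, 0.900 and 1.03 RPKM in liver. The TS level was thus the lowest of the 5 genes in all 24 libraries and the NTS level the highest. In kidney the TS levels stood in the order Cul4a, Ddb1, Xpc, Rad23b, Ddb2, and in liver Cul4a, Xpc, Ddb1, Rad23b, Ddb2, with means of 2.99, 2.60, 2.37, 1.92 and 0.718 RPKM in kidney and 2.93, 2.62, 2.31, 1.58 and 1.08 RPKM in liver. Neighbours in this order overlapped in range except Rad23b and Ddb2 in both tissues and Ddb1 and Rad23b in liver. Among the rows that name a gene, the TS means stood above 75.9% to 88.0% of rows in kidney and 69.5% to 87.9% in liver for the other 4 genes, and above 54.4% in kidney and 60.9% in liver for Ddb2. The NTS mean of Ddb2 stood above 88.5% of rows in kidney and 92.8% in liver, that of the other 4 above 46.1% to 57.6% in kidney and 55.4% to 68.0% in liver.

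**Figure D1:**
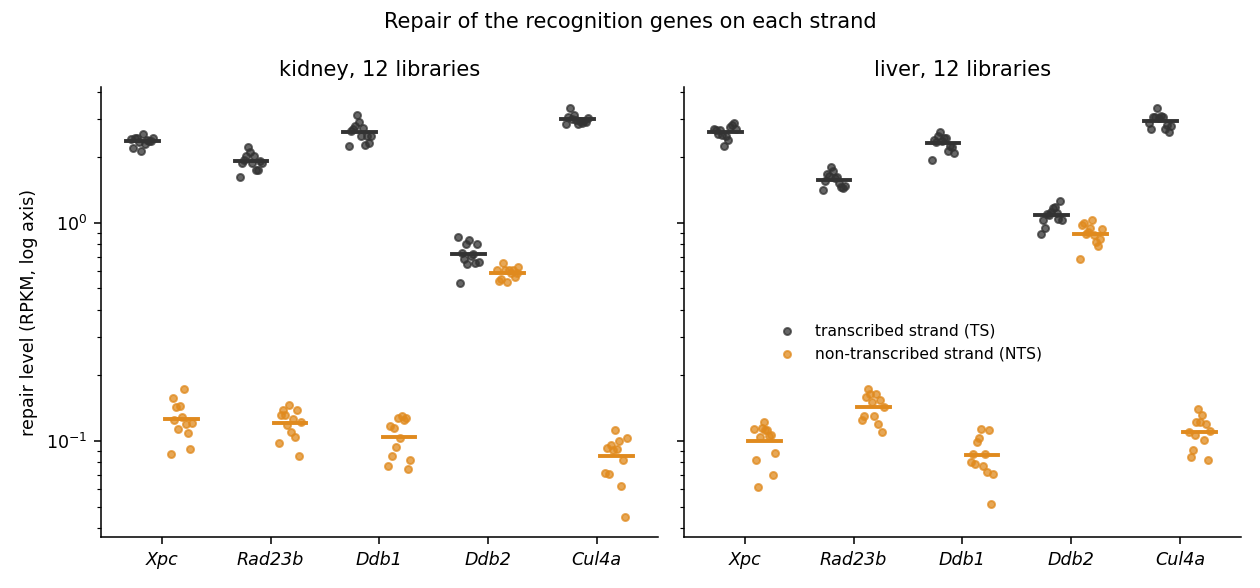
Repair level in RPKM (log axis) of each recognition gene on the transcribed (black) and non-transcribed (orange) strand, for 12 kidney libraries on the left and 12 liver libraries on the right. Each point is 1 library and the bar is the mean. The strands lie far apart for Xpc, Rad23b, Ddb1 and Cul4a, while for Ddb2 their means are 0.718 and 0.590 RPKM in kidney and 1.08 and 0.891 RPKM in liver.

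The 2 strands of each gene were compared within libraries, which asks how far repair of the recognition genes followed transcription. TS reads exceeded NTS reads for 5 of 5 genes in each tissue (adjusted p 2.16e-04 or lower by edgeR's quasi-likelihood F test), as they did for 78.6% of kidney rows and 77.9% of liver rows tested. Cul4a had 34.8 times as many reads on the TS as on the NTS in kidney (log2 5.12 ± 0.10 SE, 12 libraries) and 26.6 times as many in liver (4.74 ± 0.07). Ddb1 had 24.5 times as many in kidney (4.62 ± 0.08) and 26.9 times as many in liver (4.75 ± 0.08). Xpc had 18.7 times as many in kidney (4.22 ± 0.09) and 26.5 times as many in liver (4.73 ± 0.09). Rad23b had 15.8 times as many in kidney (3.99 ± 0.07) and 11.0 times as many in liver (3.46 ± 0.06). The median over all genes was 2.34 in kidney and 2.51 in liver on the same log2 scale, so these 4 genes lay above it in both tissues.

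Ddb2 was set apart, with 1.21 times as many TS as NTS reads in either tissue (log2 0.27 ± 0.06 in kidney and 0.28 ± 0.06 in liver, adjusted p 2.16e-04 and 1.17e-04 by the same test). The TS share of its reads was 49.6%, 54.6% and 58.6% as the lowest, median and highest of the kidney libraries and 48.7%, 54.9% and 59.9% of the liver libraries, while the lowest share of any other member in any library was 90.5%, in Rad23b in liver. A single library carries a Wilson interval of several points on the Ddb2 share, for example 49.6% (45.6% to 53.6%) for the second kidney library of ZT0, which covers counting error only. A lower TS/NTS ratio than that of Ddb2 was found in 21.4% of genes tested in kidney and 21.9% in liver. Where each strand was scaled on its own, the call for Ddb2 turned round, to log2 -1.99 in kidney and -1.94 in liver, while the median of all genes moved to -0.07 and 0.02, so that Ddb2 lay below that median either way.

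Ddb2 shares 2517 bp, 9.9% of its length, with Acp2 on the opposite strand, an acid phosphatase gene, and the TS of Acp2 there is the NTS of Ddb2. Acp2 itself had a TS/NTS log2 ratio of 2.17 in kidney and 1.84 in liver. The authors' tables of kidney counts drawn down to a fixed total list the union of the 2 genes as 1 region, so reads in the shared stretch were estimated as the scaled sum of both genes' full counts minus the drawn-down count of the union. These estimates, which carry the noise of the drawing, came to 9.51%, 25.1% and 29.6% (lowest, median and highest of 12 libraries) of the NTS reads of Ddb2 and 2.03%, 7.35% and 11.7% of its TS reads. By this estimate most of the NTS reads of Ddb2 in kidney lay outside the annotated overlap, and their source was not tested.

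The recognition genes were then set among 38 excision repair genes in all. Ddb2 had the lowest TS/NTS ratio of the 38 in both tissues, and Ercc1, a nuclease subunit gene that overlaps another row, the second lowest (log2 1.11 in kidney and 0.73 in liver). The 33 other repair genes tested were all called with TS above NTS in both tissues. The transcription-coupled repair genes had medians of 4.44 in kidney and 5.14 in liver, TFIIH genes 3.88 and 3.99, verification and excision genes 3.12 and 3.51, and resynthesis genes 3.03 and 3.47, against 4.22 and 4.73 for the 5 members. In kidney the helicase subunit gene Ercc3 (4.92 ± 0.08, adjusted p 2.66e-24), Gtf2h3 (5.13 ± 0.08, adjusted p 2.66e-24), the TFIIH kinase gene Cdk7 (3.97 ± 0.07) and the polymerase gene Polr2a (4.41 ± 0.08) had the smallest adjusted p among them. In liver these were Uvssa (5.55 ± 0.07) and Ercc6 (4.93 ± 0.07), both of transcription-coupled repair, with Ercc3 (5.03 ± 0.07) and Tcea1 (4.02 ± 0.06).

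**Figure D2:**
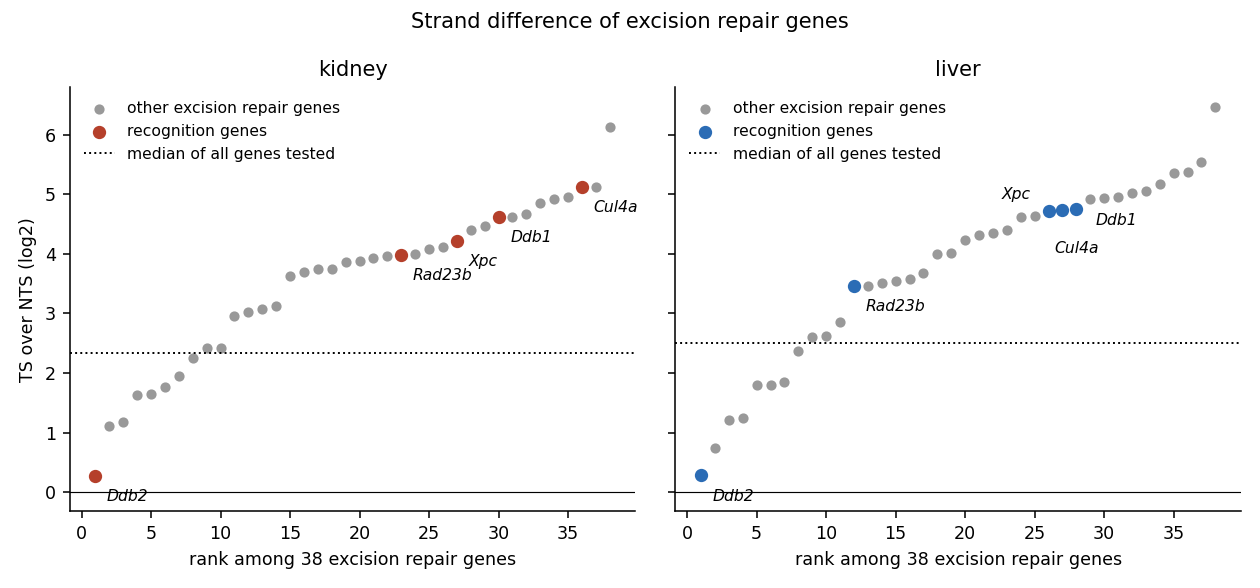
TS over NTS (log2, vertical axis) of 38 excision repair genes in rank order (horizontal axis), kidney on the left and liver on the right, with the recognition genes coloured and named and the median of all genes tested as a dotted line. Ddb2 is the lowest point in both panels, at 0.27 in kidney and 0.28 in liver, and Cul4a is the highest of the coloured points in kidney, at 5.12.

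Transcribed-strand repair over the day was compared next, since the series names 2 circadian programs. Levels here are TS reads in CPM, counts scaled to the effective TS total of their library, and each gene was fitted with 1 wave of 24 h, whose amplitude is on the log2 scale. In liver 3 of the 5 genes had a rhythm of TS repair, against 16.6% of the genes tested, and in kidney 1 of 5, against 15.0%. All the called amplitudes were small, between 0.11 and 0.13, with a fitted peak 16.6% to 19.5% above the trough.

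Rad23b in liver had 83.0 and 92.2 CPM at ZT0, 97.6 and 94.8 at ZT4, 105.5 and 98.3 at ZT8, 95.4 and 95.6 at ZT12, 90.2 and 84.5 at ZT16, and 86.7 and 87.2 at ZT20. It was thus highest in the middle of the day (amplitude 0.12 ± 0.03 SE, peak 7.8 h, adjusted p 0.0223 by edgeR's quasi-likelihood test). Cul4a in liver had 169.3 and 159.4 CPM at ZT0, 179.2 and 176.0 at ZT4, 196.5 and 172.5 at ZT8, 183.5 and 179.2 at ZT12, 161.1 and 163.8 at ZT16, and 156.2 and 165.3 at ZT20. Its peak was likewise by day (0.11 ± 0.03, 8.1 h, adjusted p 0.0288). Each of these calls was lost in 7 of 12 fits that left out 1 library: for Rad23b without either library of ZT8 (adjusted p 0.111 and 0.0518), ZT16 (0.0682 and 0.0523) or ZT20 (0.0732 and 0.0798) or library 2 of ZT12 (0.0540). For Cul4a it was lost without library 2 of ZT4 (0.0524), library 1 of ZT8 (0.120), either library of ZT12 (0.0547 and 0.0603) or ZT16 (0.0643 and 0.0539), or library 1 of ZT20 (0.0923). With no filter on low counts the adjusted p was 0.0849 for Rad23b and 0.0605 for Cul4a.

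Xpc in liver ran the other way, at 100.4 and 98.9 CPM at ZT0, 94.3 and 96.5 at ZT4, 93.2 and 81.3 at ZT8, 93.1 and 88.6 at ZT12, 103.2 and 102.6 at ZT16, and 108.7 and 100.6 at ZT20. Its peak was late at night (amplitude 0.13 ± 0.03, 20.2 h, adjusted p 0.0238), and the call was lost without library 2 of ZT8 (0.0918) or library 1 of ZT20 (0.0908). Ddb1 in liver (0.10 ± 0.04, 8.3 h, adjusted p 0.171) and Ddb2 (0.11 ± 0.05, 14.0 h, adjusted p 0.353) did not pass. In liver, 6.13% of genes tested were called with a peak between 4 and 12 h and 9.66% with a peak between 16 and 24 h.

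Ddb1 was the gene called in kidney. It had 80.1 and 90.7 CPM at ZT0, 93.6 and 94.5 at ZT4, 105.9 and 96.8 at ZT8, 87.8 and 92.5 at ZT12, 80.6 and 88.2 at ZT16, and 81.7 and 86.9 at ZT20 (amplitude 0.13 ± 0.03, peak 7.3 h, adjusted p 0.0442). The call was lost without library 2 of ZT4 (0.0666), either library of ZT8 (0.140 and 0.0946), library 2 of ZT12 (0.0572), library 1 of ZT16 (0.0773) or library 1 of ZT20 (0.0764), with the trend over gene length removed (0.0583) and with counts drawn down to a fixed total (0.0605). Rad23b in kidney had an amplitude of 0.09 ± 0.03 at 7.9 h (adjusted p 0.196), Xpc 0.05 ± 0.04, Ddb2 0.04 ± 0.08 and Cul4a 0.04 ± 0.03. A test of the 6 times with no shape assumed called none of the 5 genes in either tissue.

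Ddb2 had the widest spread between libraries in kidney. The library numbered 1 had the higher value at 6 of 6 times, at 32.2 and 19.3 CPM at ZT0, 26.7 and 24.4 at ZT4, 28.5 and 22.7 at ZT8, 30.8 and 25.4 at ZT12, 26.7 and 24.3 at ZT16, and 29.5 and 24.2 at ZT20. The difference averaged 0.32 on the log2 scale and was largest at ZT0, 0.74, against an average of 0.09 for Xpc, the next in size of the 5. In liver the library numbered 1 was the higher for Ddb2 at 2 of 6 times. The ranges of its time means, 0.17 in kidney and 0.30 in liver, stood against a pooled SD within times of 0.27 and 0.13.

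**Figure D3:**
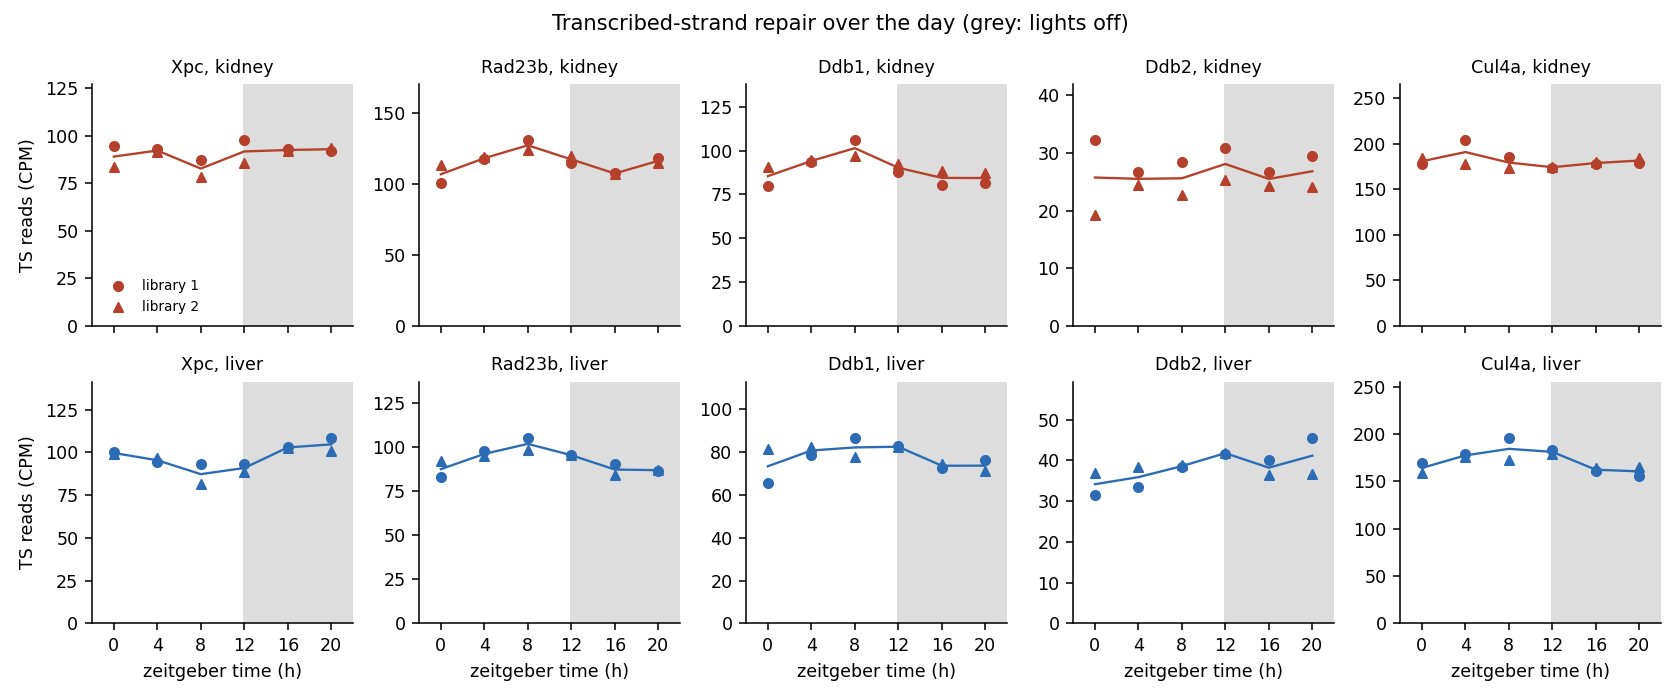
TS reads in CPM (vertical axes from 0) against zeitgeber time in hours for each recognition gene, kidney in the upper row and liver in the lower row. Circles and triangles are libraries 1 and 2 of a time, the line joins their means and grey marks lights off. In liver the means of Rad23b and Cul4a are highest at ZT8 and those of Xpc at ZT20, and the called waves peak 16.6% to 19.5% above their trough.

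Day was set against night as the mean of ZT4 and ZT8 minus the mean of ZT16 and ZT20. In kidney Ddb1 had 93.6 to 105.9 CPM in 4 day libraries and 80.6 to 88.2 CPM in 4 night libraries and rose by 0.21 ± 0.06 (log2, 15% higher, adjusted p 0.0426 by edgeR's quasi-likelihood test). It was 1 of 5 members called, against 15.8% of genes tested, and the call was lost without either library of ZT4 (0.0711 and 0.105), ZT8 (0.112 and 0.0614) or ZT20 (0.112 and 0.0593) or library 1 of ZT16 (0.129), with the length trend removed (0.0551) and with counts drawn down (0.0588). The estimate for Rad23b in kidney was 0.13 ± 0.06 (adjusted p 0.125) with all libraries and 0.15 without library 1 of ZT0. In liver none of the 5 passed, against 10.5% of genes tested: the estimates were -0.19 ± 0.06 for Xpc (adjusted p 0.0583), 0.18 ± 0.05 for Rad23b (0.0534), 0.16 ± 0.05 for Cul4a (0.0736), 0.14 ± 0.07 for Ddb1 (0.234) and -0.09 ± 0.09 for Ddb2 (0.592). At an unadjusted p under 0.05 by that test there were 3, Xpc (0.00688), Rad23b (0.00584) and Cul4a (0.0106). The same held for 4956 of the 18655 genes tested in liver. In kidney Ddb1 (0.00600) and Rad23b (0.0347) were under it, as were 6177 of 19277 genes. Without library 1 or library 2 of ZT0, a time outside this contrast, the liver estimates of Xpc, Rad23b and Cul4a were -0.19, 0.18 and 0.16. Without library 1 of ZT8 that of Xpc was -0.24. The ranges of the 4 day and 4 night libraries did not overlap for 4 of the 5 genes in liver, as in 22.9% of the genes tested, and for 1 of 5 in kidney, as in 25% of them. In liver they were 94.8 to 105.5 CPM by day and 84.5 to 90.2 CPM at night for Rad23b, and 81.3 to 96.5 CPM by day and 100.6 to 108.7 CPM at night for Xpc.

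The products of Xpc and Rad23b form a complex, and the 2 genes had opposite estimates by day and night. The TS reads of Xpc were divided by those of Rad23b, Ddb1 and Cul4a within a library, which cancels depth and scaling. These ratios were chosen after the values of the genes had been seen and are given with no test. No ratio to Ddb2 was taken. Its day minus night estimates, -0.09 in liver and -0.03 in kidney, had the same sign as those of Xpc. In liver the ratio of Xpc to Rad23b was 0.827 to 1.02 in 4 day libraries and 1.14 to 1.25 in 4 night libraries, a difference of -0.37 (log2, day minus night). The ratio of Xpc to Ddb1 in liver was 1.05 to 1.19 by day and 1.38 to 1.43 at night (-0.33), and that of Xpc to Cul4a 0.471 to 0.548 by day and 0.609 to 0.696 at night (-0.35). In kidney the ratio of Xpc to Ddb1 was 0.807 to 0.996 by day and 1.04 to 1.16 at night (-0.30), that of Xpc to Rad23b 0.631 to 0.793 by day and 0.780 to 0.867 at night (-0.22), and that of Xpc to Cul4a 0.450 to 0.514 by day and 0.509 to 0.526 at night (-0.12). The 3 ratios share Xpc, so they are not independent of each other.

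**Figure D4:**
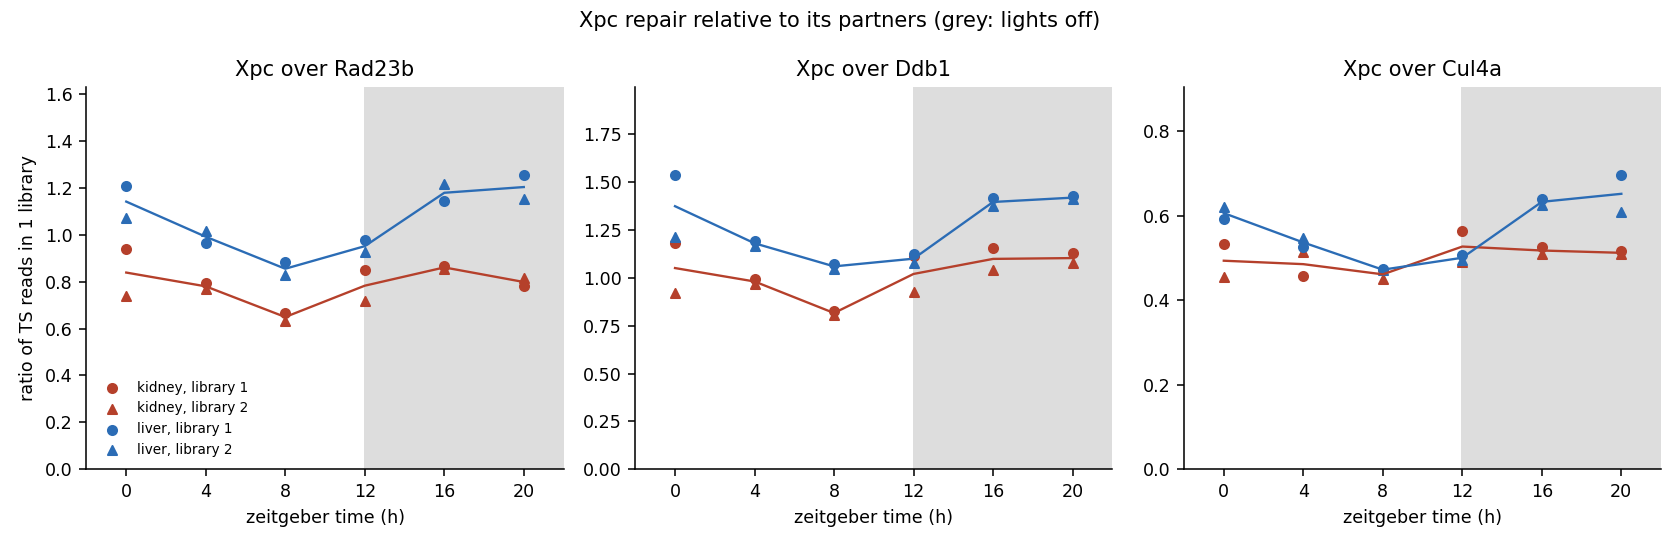
TS reads of Xpc divided by those of Rad23b, Ddb1 and Cul4a in the same library (vertical axes from 0) against zeitgeber time in hours, kidney in red and liver in blue, with circles and triangles for libraries 1 and 2, lines through the means and grey for lights off. In liver the ratio to Rad23b is 0.827 to 1.02 in the day libraries of ZT4 and ZT8 and 1.14 to 1.25 in the night libraries of ZT16 and ZT20.

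Repair of the NTS showed no rhythm that passed in any member in either tissue, where 2.12% of genes tested passed in kidney and 3.76% in liver. At an unadjusted p under 0.05 there was 1, Cul4a in liver (amplitude 0.22 ± 0.07, peak 12.1 h, p 0.0218, adjusted p 0.213). That cut was met by 2617 of the 18932 genes tested in kidney and 2763 of 18061 in liver. NTS reads were few, 18 to 84 per library for Ddb1, 27 to 115 for Xpc, 21 to 138 for Cul4a and 40 to 171 for Rad23b, against 123 to 672 for Ddb2. The TS/NTS ratio likewise had no rhythm that passed in any member, against 1.49% of genes tested in kidney and 6.1% in liver. It had 1 at an unadjusted p under 0.05, Xpc in liver (0.35 ± 0.11, peak 22.3 h, p 0.0112, adjusted p 0.113). The amplitude of Xpc was 0.43 without library 1 of ZT0. For the ratio, 3973 of 19756 genes tested in kidney and 3561 of 19256 in liver met that cut. The test of a difference in rhythm between the tissues passed for no member and for 0.939% of genes tested. An unadjusted p under 0.05 was found for 1 member, Cul4a (size of the difference 0.11 ± 0.04, p 0.0259, adjusted p 0.320), and for 2366 of 19702 genes tested.

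Other excision repair genes had rhythms of either phase. In kidney 5 of 33 tested had a TS rhythm, against 15.0% of all genes tested. Of the 5, 2 had a peak between 4 and 12 h and 3 between 16 and 24 h. Among all genes tested, 4.19% and 10.5% were called so. The 4 of smallest adjusted p were Mnat1, of the TFIIH kinase (0.20 ± 0.04, 18.8 h, adjusted p 0.0168), Rbx1, the RING subunit that works with CUL4A (0.19 ± 0.05, 6.8 h, 0.0267), Polr2a (0.14 ± 0.03, 8.3 h, 0.0363) and Gtf2h2 of TFIIH (0.18 ± 0.05, 19.2 h, 0.0379). In liver 16.6% of all genes tested had a TS rhythm. Those with a peak between 4 and 12 h were 6.13% of genes tested and those between 16 and 24 h 9.66%. Of the repair genes 8 of 33 had one, 1 with a peak between 4 and 12 h and 7 between 16 and 24 h. These included Rfc1, the large subunit of the clamp loader (0.29 ± 0.03, 20.3 h, 3.28e-04), Rpa1, which coats single-stranded DNA (0.27 ± 0.04, 20.5 h, 0.00225), Mnat1 (0.19 ± 0.03, 20.1 h, 0.00363) and Xrcc1 of the sealing step (0.19 ± 0.04, 20.1 h, 0.0198).

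For each member the 3 genes whose TS levels followed it most closely over the 24 libraries were taken, after each tissue's mean was removed, from 11593 genes (11592 for Ddb2) with at least 100 TS reads on average in each tissue. They were Ezh1, Ankmy2 and Slc36a1 for Xpc (Pearson's r 0.90, 0.89 and 0.88), Psmb2, Rab5a and Golph3 for Rad23b (0.95, 0.94 and 0.93), Zcrb1, Taf15 and Kctd20 for Ddb1 (0.93, 0.93 and 0.92), Agmo, Kcnn1 and Mgam for Ddb2 (0.87, 0.84 and 0.84), and Rhbdf2, Szrd1 and Nisch for Cul4a (0.91, 0.90 and 0.90). No member was among the 3 of another. Between members r ran from -0.60 for Xpc and Rad23b to 0.83 for Rad23b and Ddb1. The points share libraries, depth and scaling, and the values describe these libraries only.

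Kidney was compared with liver over all times, which asks whether the recognition genes were repaired differently in the 2 tissues. On the TS, 4 of 5 members differed, as did 73.9% of the genes tested. Ddb2 was lower in kidney by the most (log2 -0.64 ± 0.08 SE, 36% lower, adjusted p 6.64e-07 by edgeR's quasi-likelihood test). Its TS levels in RPKM, given above, did not overlap between the tissues, which held for 26.8% of genes tested and for no other member. Xpc was lower in kidney (-0.19 ± 0.04, 12% lower, adjusted p 9.17e-05), and Rad23b (0.23 ± 0.03, 17% higher, 2.01e-06) and Ddb1 (0.12 ± 0.04, 8% higher, 0.0115) were higher. The call for Ddb1 was lost without library 1 of liver ZT0 (0.0873) or ZT4 (0.0799), either library of liver ZT12 (0.0631 and 0.0688) or ZT16 (0.0710 and 0.0599), or library 2 of liver ZT20 (0.0866), and with DESeq2's size factors (0.06, adjusted p 0.161). Cul4a did not pass (-0.02, 95% interval -0.08 to 0.04), its sign turned to 0.05 with library totals of both strands as the scale, and it passed with DESeq2's size factors (-0.07, adjusted p 0.0392). The median over all genes was 0.07.

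On the NTS, 3 of 5 members were lower in kidney, where 32.2% of the genes tested were lower and 33.9% higher. Ddb2 was lower by 0.89 on the log2 scale (-0.89 ± 0.08, adjusted p 7.11e-12), and its NTS levels in RPKM did not overlap between the tissues, as in 19.1% of genes tested. Cul4a (-0.64 ± 0.08, 3.78e-08) and Rad23b (-0.54 ± 0.07, 7.10e-08) were lower as well. The sizes of these differences depend on the scale. The fits put Ddb2, Cul4a and Rad23b 46%, 36% and 31% lower in kidney. Their mean NTS levels in RPKM, kidney over liver, were 0.6617, 0.7696 and 0.8426, a smaller drop for each. For Ddb2 the same RPKM ratio on the TS was 0.6646, close to that on the NTS. Xpc (0.07, 95% interval -0.11 to 0.24) and Ddb1 (-0.00, -0.18 to 0.17) did not pass. With the library total of both strands as the scale, Xpc (0.38, adjusted p 0.00424) and Ddb1 (0.31, 0.0192) were called higher in kidney, while the median of all genes moved from 0.02 to 0.33 with that scale (TS share of gene reads 83.6% to 88.0% in kidney libraries and 86.1% to 89.0% in liver libraries).

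The TS/NTS ratio is free of that choice of scale in part, as both strands of a library share 1 size. It was higher in kidney for Rad23b (0.52 ± 0.09, adjusted p 4.05e-06) and Cul4a (0.38 ± 0.11, 0.00354) and lower in kidney for Xpc (-0.51 ± 0.13, 0.00109), so 3 of 5 differed, against 60.7% of genes tested. Ratios per library were 12.6, 15.7 and 22.5 in kidney and 9.49, 11.2 and 13.1 in liver for Rad23b (lowest, median and highest), 26.5, 33.6 and 64.9 in kidney and 21.6, 26.4 and 33.7 in liver for Cul4a, and 13.2, 19.9 and 27.6 in kidney and 18.5, 25.7 and 41.6 in liver for Xpc. The tissues overlapped in range for all 3, while the mean of a time was on the same side at 6 of 6 times. Ddb1 (-0.14, 95% interval -0.37 to 0.10) and Ddb2 (-0.01, -0.17 to 0.16) did not pass. The median over all genes was -0.14. Ddb2 thus had the largest tissue difference of the 5 members on each strand. The interval for the tissue difference of its TS/NTS ratio lay on either side of 0. Its overlapping neighbour Acp2 was also lower in kidney on the TS (-0.33 ± 0.05, adjusted p 7.33e-06 by edgeR's quasi-likelihood test) and the NTS (-0.92 ± 0.07, 1.69e-12). The TS/NTS ratio of Acp2 was higher in kidney (0.33 ± 0.08, 8.28e-04).

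Among the 33 other repair genes tested, 5 were higher and 15 lower in kidney on the TS, where 42.2% and 31.7% of all genes tested were. The 4 of smallest adjusted p were Ercc1 (0.60 ± 0.04, higher), Gtf2h4 of TFIIH (-0.46 ± 0.05, lower), Rfc1 (-0.45 ± 0.05, lower) and the polymerase gene Pole (-0.82 ± 0.09, lower). For the TS/NTS ratio 5 of 33 were higher and 13 lower in kidney, where 23.1% and 37.6% of all genes tested were, led by Ercc2 (-2.42 ± 0.12, lower) and Lig3 (1.04 ± 0.08, higher), which both overlap other rows, then Ercc8 of transcription-coupled repair (-1.36 ± 0.13, lower) and Pole (-1.44 ± 0.15, lower).

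**Figure D5:**
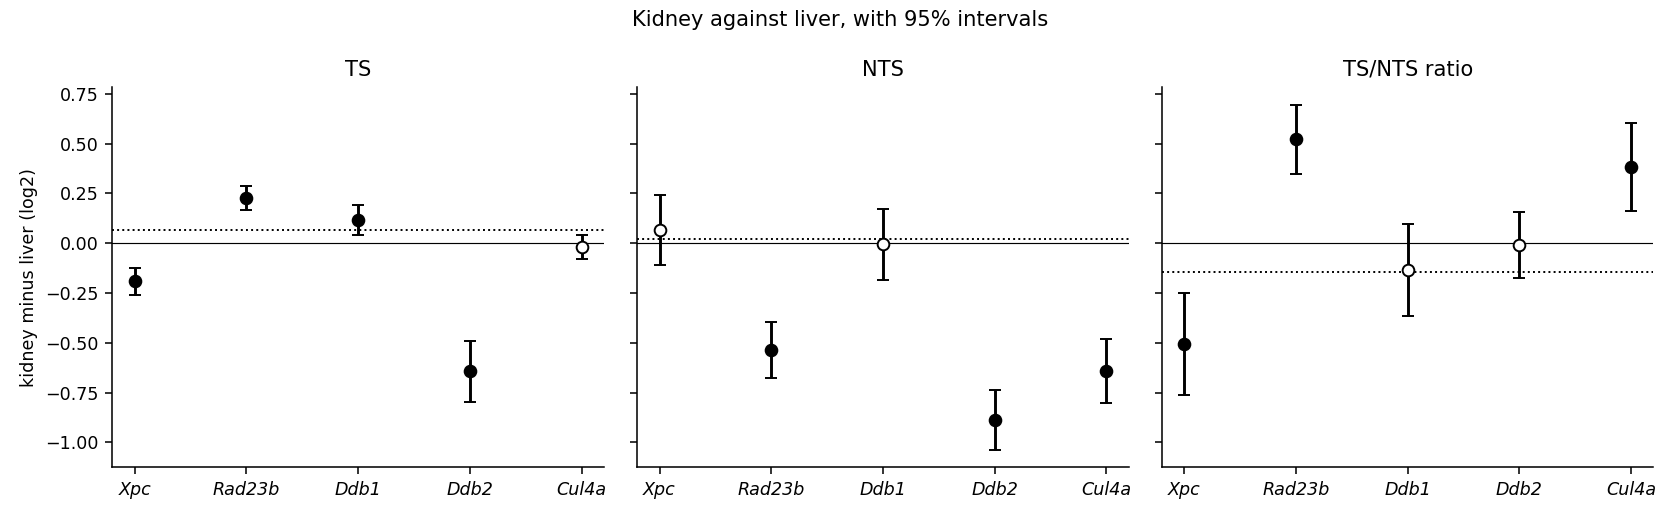
Kidney minus liver (log2, vertical axis) of the recognition genes for TS reads, NTS reads and the TS/NTS ratio, with 95% intervals from the standard error, filled points for adjusted p under 0.05 and the median of all genes tested as a dotted line. Ddb2 is lowest on both strands, at -0.64 and -0.89, and near 0 for the ratio, while Rad23b, at 0.52, and Xpc, at -0.51, lie on opposite sides for the ratio.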

How the data were processed

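Each deposited table covers 1 tissue, 1 strand and 1 replicate number and holds, per the file headers, read counts and RPKM values of every gene row at the 6 times. The deposited counts were used for all tests, and the deposited RPKM values for levels and, set against counts and gene lengths, to recover library totals. Further deposited counts, for kidney, had been drawn down by the authors to a fixed total (8700000 reads for libraries numbered 1 and 20000000 for those numbered 2). Per the labels' protocols, oligomers were captured with antibodies against TFIIH and then against a lesion. That protocol names other lesions than cisplatin's, which the series' design text names. The build, mm10, is from the submitters' processing notes, while aligner and counter were not given in the sources used here. Starts were written 1-based. Rows naming no gene (882, 2.72% to 2.81% of TS reads) were left out.

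Every test of counts was edgeR's quasi-likelihood test (version 4.0.16, with limma 3.58.1 in R 4.3.3), run with the filterByExpr filter. Fits of 1 strand used TMM scaling. Fits of both strands, for strand differences and TS/NTS ratios, used the TS plus NTS total of each library without TMM. For them, TMM with each strand column scaled on its own was an alternative. Adjusted p-values are Benjamini-Hochberg's over all genes, with a threshold of 0.05. Rhythms used the cosine and sine of 24 h. Strands were compared within libraries, each library entering as a block with 1 size for its TS and NTS columns. Tissues were compared as means over times. Intervals are 95%. The fits were tested on simulated data with 200 changed genes. The simulated rhythms had larger amplitudes than the called rhythms of the members, so recovery of rhythms that small was not tested. Alternatives were DESeq2 1.42.0 and its size factors, library totals, no filter, rows without overlap, drawn-down counts, the length trend removed, any difference among times, replicate blocks and each library left out.

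Named are the 5 members, up to 4 called genes of smallest adjusted p among the other repair genes per comparison, 5 clock genes and the 3 genes most like each member. The group of other recognition genes is not reported here. Marker lists for endothelium (summed TS level 0.958 to 1.62 RPKM in kidney and 0.908 to 2.77 in liver), immune cells (4.07 to 6.69 and 3.80 to 5.39), podocytes (0.131 to 0.330 and 0.0720 to 0.122) and pancreatic acinar cells (0.712 to 0.970 and 0.416 to 0.763) were read as well. In that order, 2 of 4, 1 of 4, 2 of 2 and 1 of 3 genes were higher in kidney, and the others in liver. The members and lists were chosen with earlier results of these data known. Whether equal replicate numbers pair libraries across times was checked on deviations from the time and tissue means: the correlation was over 0.1 in 14 of 15 pairs of times in kidney and in 9 of 15 in liver. Pairing was to be accepted only if it exceeded 0.1 in every pair, which neither tissue met, narrowly in kidney (lowest 0.094), so the design stayed without a block.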

Additional observations from a re-analysis of the deposited data

Results flagged for a closer look

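The strand ratio of 3 recognition genes differed between the tissues by the test of the difference itself, as did 60.7% of all genes tested, so 3 of 5 is near the background. On the log2 scale the TS/NTS ratio, kidney minus liver, was -0.51 for Xpc, 0.52 for Rad23b and 0.38 for Cul4a (edgeR's quasi-likelihood test, adjusted p 0.00109, 4.05e-06 and 0.00354, 12 libraries a tissue). For Rad23b both strands moved, with more TS and less NTS repair in kidney, for Cul4a the NTS passed and the TS did not, and for Xpc the TS passed and the NTS did not. These splits depend on the scaling, since the TS of Cul4a passed with DESeq2's size factors (-0.07, adjusted p 0.0392) and the NTS of Xpc with library totals (0.38, adjusted p 0.00424). The share of TS reads over all genes was 83.6% to 88.0% in kidney libraries and 86.1% to 89.0% in liver libraries, ranges that overlap, and its part in these results was not tested.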

How the results depend on the processing

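The strand differences of the 5 members, the tissue difference of Xpc, Rad23b and Ddb2 on the TS and of Rad23b, Ddb2 and Cul4a on the NTS, and the tissue difference of the TS/NTS ratio of Xpc, Rad23b and Cul4a kept their direction and passed under each alternative that gave a value, apart from the strand difference of Ddb2 with each strand scaled on its own (-1.99 in kidney and -1.94 in liver). That scaling split the calls into 9350 higher and 9743 lower in kidney (15531 and 2184 otherwise) and 9638 and 9482 in liver (15007 and 2167), and those of the tissue difference of the ratio into 5998 and 5478 (4423 and 7185). It also turned the tissue difference of the ratio of Ddb1 to 0.037 and of Ddb2 to 0.16. Rows that overlap no other row exclude Ddb2 and Cul4a, so by construction 3 members were called for the strands in each tissue and 1 for the tissues on the NTS. With library totals as the scale, the tissue difference on the NTS was called for 5 members, with 10392 genes higher and 3203 lower (6485 and 6159 otherwise), and turned to 0.31 for Ddb1, while the median of all genes moved to 0.33 (0.02 otherwise). That on the TS turned to 0.048 for Cul4a, with 9545 genes higher and 5340 lower (8309 and 6243) and a median of 0.14 (0.07).

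The rhythm of the TS in kidney was called for 0 members with the length trend removed, with drawn-down counts and for any difference among times, and in liver for 1 with no filter and 0 for any difference. Day minus night in kidney was called for 0 members with the length trend removed and with drawn-down counts. Without 1 library in turn, members called ranged from 0 to 1 for the TS rhythm in kidney, 0 to 3 in liver, 0 to 2 for day minus night in kidney, 0 to 3 in liver, 0 to 1 for the ratio rhythm in liver, and 3 to 4 for the tissues on the TS. These fits moved signs of differences that were not called: day minus night in kidney from -0.0018 to 0.10 for Cul4a and -0.11 to 0.066 for Ddb2, the tissue difference on the NTS from -0.047 to 0.046 for Ddb1, and that of the ratio from -0.040 to 0.020 for Ddb2. The 6 ratios of Xpc to Rad23b, Ddb1 and Cul4a kept their sign without each library, from -0.42 to -0.10 over all of them. That check was chosen after seeing the data.

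With the replicate number as a block, 1 member was called in liver for day minus night, Xpc (-0.19, adjusted p 0.0411), and the block changed no other call of a member. Over all genes the block called 4899 TS rhythms in kidney (2886 without it), 1473 NTS rhythms in kidney (401), 5558 for day minus night in kidney (3055) and 308 differences of rhythm between tissues (185). In both tissues 12 of 12 libraries correlated best with a library of their own number, a hint from the data and not from the design. The 12 outcomes are not independent, since the same libraries enter all of them. Other counts over all genes that moved by over 1.5 times were those for any difference among times (196 and 549 TS rhythms in kidney and liver, 17 and 270 NTS rhythms, against 2886, 3098, 401 and 679), no filter (1171 and 1156 NTS rhythms, 502 ratio rhythms in kidney against 294), rows without overlap (221 and 410 NTS rhythms, 181 ratio rhythms in kidney), DESeq2 (635 NTS rhythms in kidney), drawn-down counts (213 NTS rhythms in kidney) and the length trend removed (1837 for day minus night in kidney). Without 1 library these counts ran from 908 to 3938 for TS rhythms in kidney, 1639 to 4514 in liver, 751 to 4596 for day minus night in kidney, 526 to 4341 in liver, 87 to 1063 and 385 to 1027 for NTS rhythms, 44 to 2792 and 542 to 1546 for ratio rhythms, and 112 to 400 for the difference of rhythms. The causes were not tested. With 2 libraries per time and amplitudes near the threshold, the rhythm calls of the members rest on few libraries. NTS reads were few for the members other than Ddb2.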
